A study of Mus musculus with 4 samples.

Results

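The genes described here damp or carry signals of G protein-coupled receptors in Langerhans cells, the dendritic cells of the epidermis. They are the beta-arrestins Arrb1 and Arrb2, the regulators of G protein signalling Rgs1, Rgs2, Rgs10, Rgs16, Rgs18 and Rgs19, and Gnai2, which is neither an arrestin nor an RGS gene but encodes a G protein alpha subunit on which RGS proteins act. Every probe set that the platform annotation gives to one of these 9 genes alone was taken, which made 16 of the 22626 probe sets tested and 9 of 12393 genes. Arrb1 was selected on its log2 difference between the genotypes, since its signal was lower in AhR-deficient cells. Its difference between genotypes is therefore a description without a test. The other 8 genes were listed for their function, with results of these data already known.

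The comparison held 2 arrays per genotype. The AhR-deficient cells came from mice without exon 2 of Ahr, the gene of the aryl hydrocarbon receptor, a ligand-activated transcription factor, and the wild-type cells from C57BL/6 mice. All mice were untreated. In both groups the epidermal cells of the ear were kept in culture for 16 hours, and the Langerhans cells were then taken by sorting for MHC class II, with purity given as above 95%, from a light fraction in which they made up 20 to 35%. The labels state neither age nor sex, nor how many mice stood behind an array. They call the arrays of a genotype biological replicates. Values are log2 signals on Affymetrix MOE430A arrays, so 1 unit is a 2-fold step. Brightness depends on the probes, so no gene's level was set against that of another gene.

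As background, chemokines and many other mediators act on receptors that switch on heterotrimeric G proteins by loading the alpha subunit with GTP. RGS proteins speed up the hydrolysis of that GTP and so shorten the signal. Receptor kinases then phosphorylate the active receptor, and beta-arrestins bind it, uncouple it from the G protein, bring it to clathrin-coated pits and hold kinases near it. Langerhans cells rely on such receptors when they leave the epidermis for lymph nodes.

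Ahr, the deleted gene, read 8.55 and 8.60 in AhR-deficient cells, against 7.61 and 8.23 in wild-type cells. The annotation does not place its probe sets in the deleted exon, so this signal does not check the genotype labels. Ahrr, the AhR repressor gene and a known target of AhR, read 5.32 and 5.09 in AhR-deficient cells, against 8.26 and 8.38 in wild-type cells, which is the direction that the labels give. All 13 markers of Langerhans cells that were listed, among them Cd207 and Epcam, exceeded the 25th percentile of signals on at least 1 array. So did every measured marker of the NK cell, melanocyte, mast cell and platelet and erythroid lists. This measure therefore does not tell cell types apart. Wild-type replicate 1 stood apart on a measure of RNA quality. For Actb, the 3′ control probe set exceeded the 5′ one on the log2 scale by 2.34 and 2.61 in AhR-deficient cells, against 3.16 in wild-type replicate 1 and 2.65 in wild-type replicate 2. For Gapdh this measure was 2.24 and 2.19 in AhR-deficient cells, against 2.60 and 1.97 in wild-type cells. Results that rest on this array are given with and without it.

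Arrb1, which was picked because it was lower, had lower signals in AhR-deficient cells without overlap between genotypes. Arrb2 was also lower without overlap, at both of its probe sets. Rgs2 had higher signals at both of its probe sets, also without overlap, and Rgs1 was higher on average but overlapped. Rgs10, Rgs19 and Gnai2 showed no direction that their arrays shared, and Rgs18 and most of Rgs16 gave signals near the bottom of the arrays. The test was limma, a linear model that draws the variance of each probe set toward a value shared by all. There, 0 of the 15 probe sets of genes other than Arrb1 passed at an adjusted p of 0.05, where 0.0177% of all probe sets did. At an unadjusted p under 0.05 there were 2 of these 15, where 6% of all probe sets reached that level. The AhR-deficient arrays were both below the wild-type ones at 5 of the 16 probe sets (16.2% of all probe sets), and above them at 2 (19% of all probe sets). Of the 5 lower ones, 2 belong to Rgs18, whose signals are near the bottom. Since Arrb1 was chosen for this contrast, nothing is read from these counts.

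**Figure D1:**
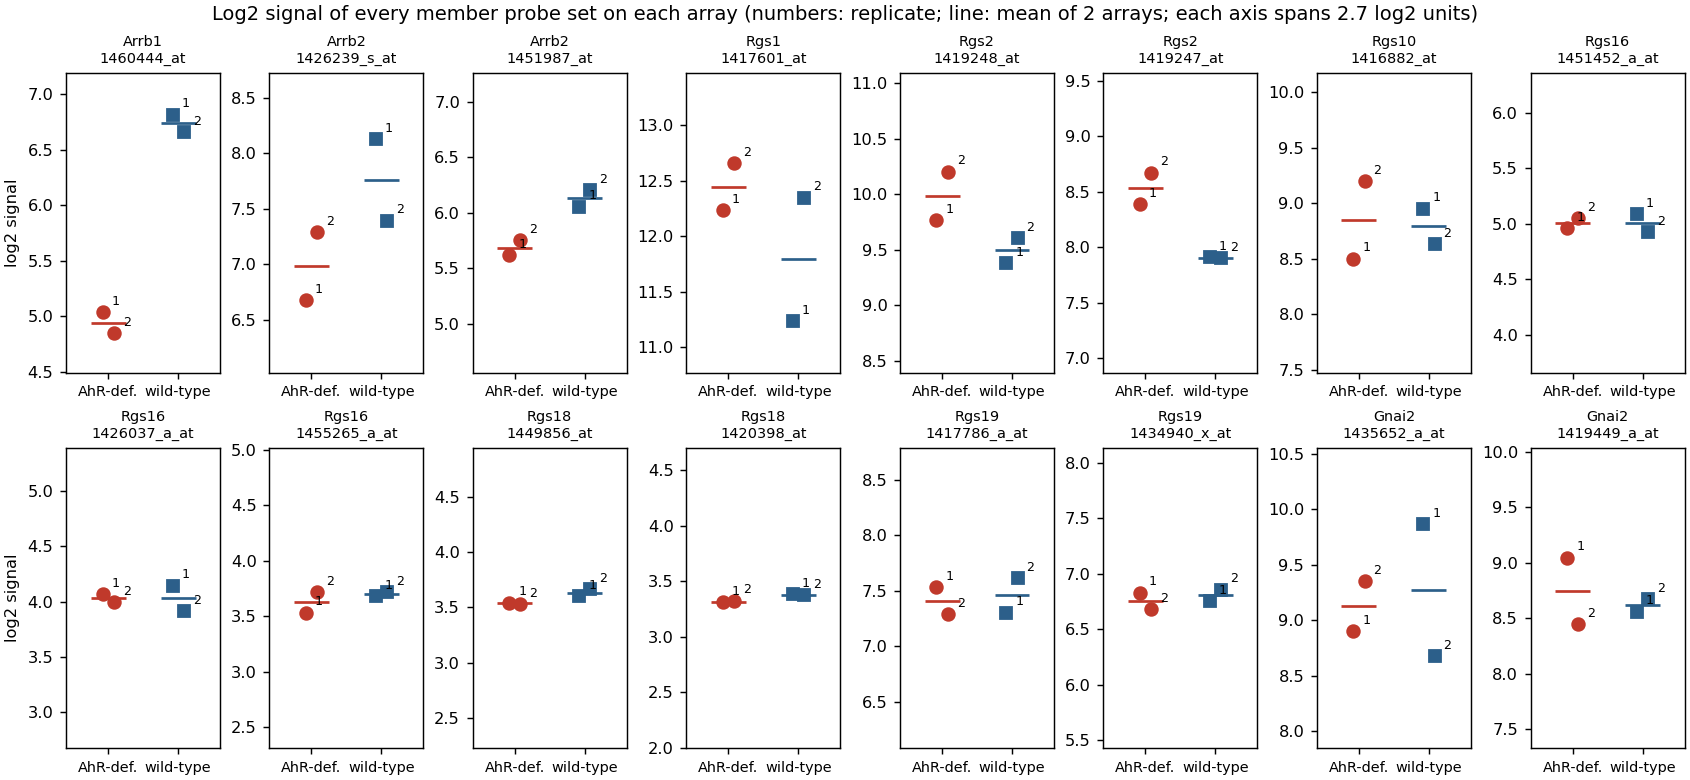
Log2 signal of the 16 probe sets on each of the 4 arrays, AhR-deficient (red circles) left of wild-type (blue squares), numbered by replicate, with a line at the mean of 2 arrays; all panels span the same range. The genotypes are wide apart for Arrb1 (5.04 and 4.84 in AhR-deficient cells, against 6.81 and 6.66 in wild-type cells), while for Rgs1 the lower AhR-deficient value of 12.23 lies under the higher wild-type value of 12.35.

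Arrb1 encodes beta-arrestin 1, which binds phosphorylated receptors and can also enter the nucleus. Its single probe set, 1460444_at, read 5.04 and 4.84 in AhR-deficient cells, against 6.81 and 6.66 in wild-type cells. The AhR-deficient arrays lay 0.19 apart and the wild-type arrays 0.16, and the closest pair across genotypes was 1.62 apart. The log2 difference, AhR-deficient minus wild-type, was -1.80 (SE 0.11, n = 2 arrays each), so the signal was 0.288 of that in wild-type cells. Ordered from the lowest difference over the 12393 genes, each taken by its brightest probe set, Arrb1 ranked 16. Leaving out any single array kept its difference between -1.89 and -1.70. The AhR-deficient values stayed above the 25th percentiles of their arrays, 4.55 and 4.56. In a pool of sorted cells, a lower signal from fewer cells of a type and one from less RNA per cell cannot be told apart.

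Arrb2 encodes beta-arrestin 2, the close relative that shares receptor binding and clathrin-mediated uptake with beta-arrestin 1. Its brighter probe set, 1426239_s_at, read 6.68 and 7.29 in AhR-deficient cells, against 8.13 and 7.39 in wild-type cells. The genotypes did not overlap, but only 0.10 separated AhR-deficient replicate 2 from wild-type replicate 2, while arrays of a genotype lay 0.61 and 0.74 apart. The difference was -0.78 (SE 0.34), which became -0.41 without wild-type replicate 1 and -0.47 without AhR-deficient replicate 1. The ending _s_at marks a probe set whose probes match more than 1 transcript.

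The other probe set of Arrb2, 1451987_at, had a smaller and more even difference. It read 5.62 and 5.75 in AhR-deficient cells, against 6.06 and 6.21 in wild-type cells, with no overlap. Its difference was -0.45 (SE 0.10) and ranged from -0.51 to -0.38 when either AhR-deficient array was left out, and from -0.52 to -0.37 when either wild-type array was. Neither Arrb2 probe set passed in limma (adjusted p = 0.857 and 0.646). The 2 probe sets of Arrb2 measure 1 gene and are not independent of each other.

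**Figure D2:**
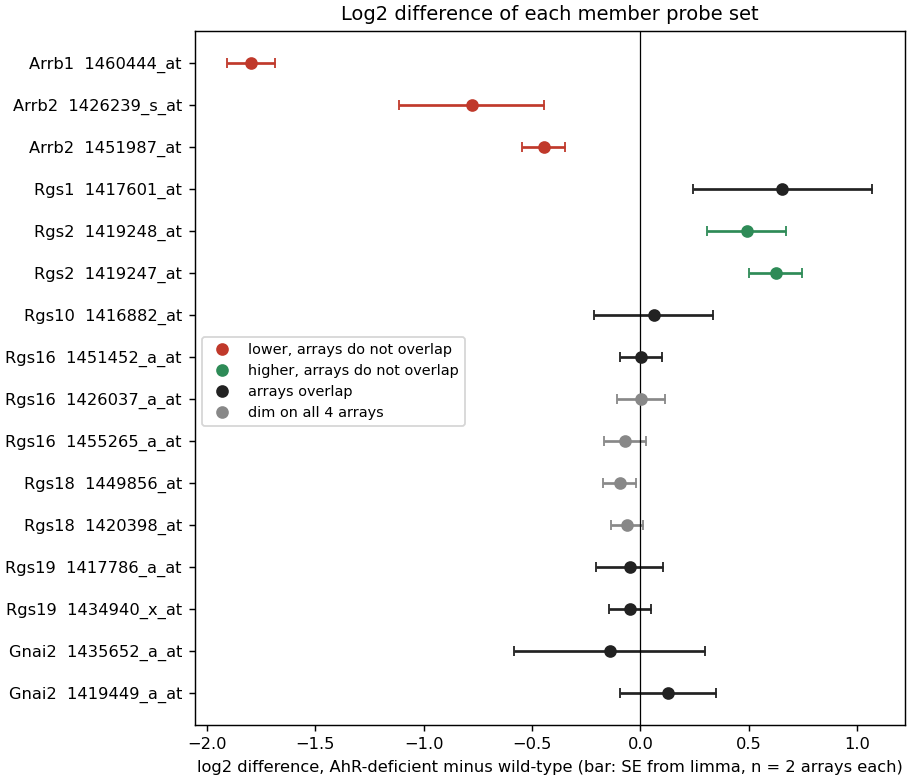
Log2 difference (AhR-deficient minus wild-type) of each probe set, with limma's SE as bars and 2 arrays per genotype; red marks lower and green higher values without overlap, black overlap, and grey probe sets under the 25th percentile on all 4 arrays. Arrb1 lies at -1.80, the Arrb2 probe sets at -0.78 and -0.45, those of Rgs2 at 0.49 and 0.62, and the grey ones at most 0.09 from 0.

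Rgs2 encodes an RGS protein that acts mainly on Gq-type alpha subunits and is itself induced by many receptor signals. Probe set 1419247_at read 8.39 and 8.67 in AhR-deficient cells, against 7.91 and 7.90 in wild-type cells. The wild-type arrays were within 0.01 of each other and both AhR-deficient arrays lay above them, for a difference of 0.62 (SE 0.12; limma adjusted p = 0.576, not passed). The brighter probe set, 1419248_at, read 9.77 and 10.20 in AhR-deficient cells, against 9.38 and 9.61 in wild-type cells. Here the genotypes were 0.16 apart at their closest, and the difference was 0.49 (SE 0.18; limma adjusted p = 0.834). Without AhR-deficient replicate 2 this value was 0.27, while that of the first probe set was 0.48.

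RefSeq start sites on GRCm38.p6 were at hand for 4 of the 9 genes, namely Rgs2, Rgs10, Rgs16 and Rgs19. The 250 bases before the start are shown for Rgs2, the one gene of these whose arrays did not overlap, and for Rgs10, whose arrays did. Capitals mark the core of the sequence that AhR binds with its partner Arnt, searched as GCGTG on either strand (CACGC on the strand shown), with no other motif searched.
Rgs2, chr1:144004150-144004399, minus strand: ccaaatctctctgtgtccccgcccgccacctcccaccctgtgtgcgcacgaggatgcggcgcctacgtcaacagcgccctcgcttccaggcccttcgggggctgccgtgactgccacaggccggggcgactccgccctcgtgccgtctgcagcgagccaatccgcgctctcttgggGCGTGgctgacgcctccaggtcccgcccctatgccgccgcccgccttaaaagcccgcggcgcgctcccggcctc
Rgs10, chr7:128418173-128418422, minus strand: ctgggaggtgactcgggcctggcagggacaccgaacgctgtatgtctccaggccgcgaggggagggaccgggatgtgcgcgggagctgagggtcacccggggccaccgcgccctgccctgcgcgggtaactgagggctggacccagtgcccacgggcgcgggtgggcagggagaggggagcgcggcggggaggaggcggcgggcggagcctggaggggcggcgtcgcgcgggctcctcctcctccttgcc
The window of Rgs2 held 1 match, which begins 74 bases before the start, and that of Rgs10 held none. Of the 3 windows of Rgs19, 2 held a match, and the window of Rgs16 held none. Over all 32851 windows of the same length, 28.2% held at least 1 match. A match describes the letters only.

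Rgs1 encodes an RGS protein of the Gi and Gq classes that is known to blunt chemokine responses of lymphocytes. It read 12.23 and 12.66 in AhR-deficient cells, against 11.23 and 12.35 in wild-type cells, at its single probe set 1417601_at. The genotypes overlapped, and the mean difference of 0.66 (SE 0.41; limma adjusted p = 0.892) rested on 1 array. Wild-type replicate 1 was 1.11 below wild-type replicate 2, a gap wider than that of 99.2% of all probe sets, and without it the difference was 0.10. Without wild-type replicate 2 it was 1.21. The same array also had the largest Actb and Gapdh values of the RNA quality measure, whose part in this result was not tested.

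Rgs1, Rgs2 and Rgs18 are neighbours on chromosome 1. In RefSeq (GRCm38.p6) the only protein-coding genes that lie between them are Rgs13 and Rgs21. Both were listed among the other RGS genes but had no probe set of their own. Rgs16 is also on chromosome 1. None of the 9 genes shares chromosome 12 with Ahr. Among these neighbours, Rgs2 was higher without overlap, Rgs1 overlapped, and Rgs18 was near the bottom of the arrays.

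Rgs10 encodes a small RGS protein of the Gi class that is abundant in microglia and other myeloid cells. It read 8.50 and 9.20 in AhR-deficient cells, against 8.95 and 8.63 in wild-type cells. AhR-deficient replicate 2 and wild-type replicate 1 were the high arrays, so the genotypes were interleaved, and the difference was 0.06 (SE 0.27). The gap of 0.70 between the AhR-deficient arrays was wider than that of 98.0% of all probe sets. The sign turned when AhR-deficient replicate 2 (-0.29) or wild-type replicate 2 (-0.10) was left out.

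Rgs19, also called GAIP, encodes a Gi-class regulator linked to vesicle traffic. Its brighter probe set, 1417786_a_at, read 7.53 and 7.29 in AhR-deficient cells, against 7.30 and 7.61 in wild-type cells, and 1434940_x_at read 6.83 and 6.68 in AhR-deficient cells, against 6.75 and 6.86 in wild-type cells. In both, AhR-deficient replicate 1 and wild-type replicate 2 were the high arrays, the reverse of Rgs10. Both probe sets overlapped between genotypes and both differed by -0.05 (SE 0.15 and 0.10). The sign of the brighter one turned without AhR-deficient replicate 2 (0.07) or wild-type replicate 2 (0.11).

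Rgs16 and Rgs18, which are known as an inducible regulator of lymphocytes and a regulator of platelets, gave little signal. Both probe sets of Rgs18 and 2 of the 3 of Rgs16 lay under the 25th percentile on all 4 arrays. Rgs18 at 1449856_at read 3.54 and 3.53 in AhR-deficient cells, against 3.60 and 3.66 in wild-type cells. The genotypes did not overlap, but the difference of -0.09 (SE 0.08; limma adjusted p = 0.909) was about as large as its error.

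The remaining probe set of Rgs16, 1451452_a_at, read 4.97 and 5.05 in AhR-deficient cells, against 5.09 and 4.93 in wild-type cells. It overlapped, with a difference of 0.00 (SE 0.10). No difference in Rgs16 or Rgs18 was detectable at these signals, which does not show that the transcripts were absent.

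Gnai2 encodes the Gi alpha subunit through which chemokine receptors signal in leukocytes, and its 2 probe sets disagreed. Probe set 1435652_a_at read 8.90 and 9.35 in AhR-deficient cells, against 9.86 and 8.67 in wild-type cells. Wild-type replicate 1 was the highest array and wild-type replicate 2 the lowest, 1.19 apart, and the difference was -0.14 (SE 0.44). At 1419449_a_at the values were 9.05 and 8.45 in AhR-deficient cells, against 8.56 and 8.68 in wild-type cells, and the difference was 0.13 (SE 0.22). There AhR-deficient replicate 1 was the highest array. Without wild-type replicate 1 both were positive, at 0.45 and 0.07. Both probe sets overlapped between genotypes.

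**Figure D3:**
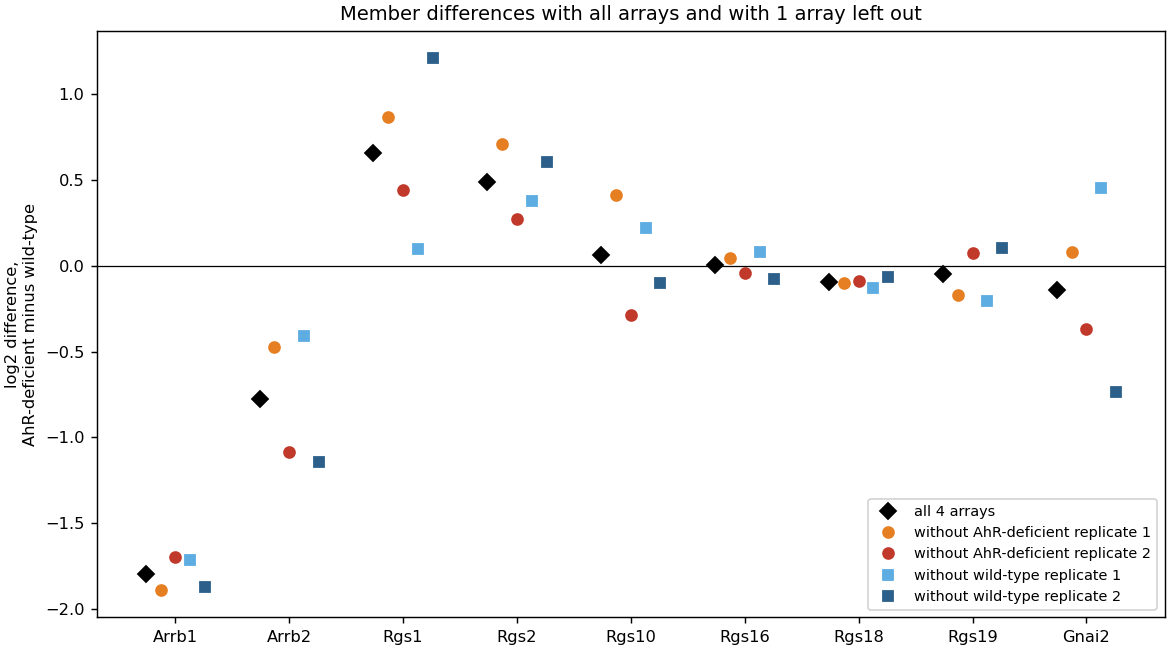
Log2 difference (AhR-deficient minus wild-type) of each gene at its brightest probe set, with all 4 arrays (black diamonds) and with each array left out (circles for AhR-deficient, squares for wild-type arrays). Arrb1, Arrb2, Rgs1, Rgs2 and Rgs18 stay on 1 side of 0, with Rgs1 down to 0.10, and Rgs10, Rgs16, Rgs19 and Gnai2 cross it. For Arrb1, Arrb2, Rgs2 and Rgs18 this follows from the lack of overlap between genotypes, since leaving out 1 array then cannot turn the sign.

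The members differed in how far replicates of a genotype lay apart, a measure that the choice of Arrb1 did not use. Over all probe sets the median gap between replicates was 0.12 in AhR-deficient and 0.11 in wild-type cells. Arrb1 had gaps of 0.19 and 0.16, slightly above these medians. Gnai2 at 1435652_a_at had gaps of 0.45 and 1.19, and Rgs1 had 0.43 and 1.11. The wild-type gap of Gnai2 at that probe set exceeded 99.4% of all probe sets.

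Other genes of the route, taken from 10 lists, were compared in the same fit with 1 probe set per gene. Of 150 genes listed, 120 were measured with a probe set of their own, and none passed in either direction (limma, 0 of 120, where 0.0323% of all genes passed). At an unadjusted p under 0.05 there were 7, where 6.54% of all genes reached that level. Without overlap, 27 were higher (22.5%, against 18.8% of all genes) and 16 lower (13.3%, against 16.6% of all genes). Their median difference was 0.01, as over all genes. The 9 members had a median of -0.05.

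The counts of each list that follow are of genes without overlap, to be read against 18.8% higher and 16.6% lower over all genes, and with so few genes a list they are descriptions. Among 11 other RGS genes, 3 were higher and 3 lower, with differences from -0.19 to 0.27. Rgs8, which is best known from neurons, differed by 0.27 (SE 0.08). Rgs5, known from pericytes, differed by 0.18 (SE 0.09) at its brightest probe set, but its 3 dimmer ones were negative, from -0.16 to -0.04. Of 7 other arrestin family genes, 1 was higher and 2 were lower, led by the alpha-arrestins Arrdc4 (-0.27, SE 0.13) and Arrdc1 (-0.07, SE 0.07). Their other probe sets overlapped between genotypes, at -0.22 for Arrdc4 and at -0.002 and -0.008 for Arrdc1. Of 4 receptor kinases, 1 was higher and 1 lower, Grk1, the kinase of rhodopsin, by 0.07 (SE 0.08) and Grk6 by -0.05 (SE 0.07). The other probe set of Grk6 was also lower without overlap, by -0.14 (SE 0.08).

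G protein subunits spread on both sides of 0. Of 13 other alpha subunits, 4 were higher and 2 lower. Gnas, the alpha subunit that stimulates adenylyl cyclase, differed by 0.37 (SE 0.15), and Gnai3, a close relative of Gnai2, by 0.27 (SE 0.14). The dimmer probe sets of Gnas and Gnai3 overlapped between genotypes, with differences from -0.09 to 0.04. Of 13 beta and gamma subunits, 2 were higher and 1 lower. Gnb4, a beta subunit, read 7.82 and 7.95 in AhR-deficient cells, against 8.67 and 8.31 in wild-type cells, and the difference was -0.61 (SE 0.15; limma adjusted p = 0.697). Its other probe set was also lower without overlap, by -0.37 (SE 0.13). Gnb3 differed by 0.18 (SE 0.08).

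Effectors and partners had few large differences. Of 19 effectors 5 were higher and 0 lower without overlap. Pik3cg, the kinase subunit that beta-gamma subunits activate, read 7.49 and 7.46 in AhR-deficient cells, against 6.57 and 6.31 in wild-type cells, and the difference was 1.03 (SE 0.11; limma adjusted p = 0.319). Its other probe set differed by 0.47 (SE 0.21), and unlike the members it lies on chromosome 12 with Ahr. Dock2, a Rac activator needed for leukocyte migration, differed by 0.23 (SE 0.10).

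Of 16 genes of clathrin and AP-2 uptake, 1 was higher and 1 lower, Usp33, a deubiquitinase that acts on beta-arrestins, by 0.31 (SE 0.15) and Ap2s1, an AP-2 subunit, by -0.24 (SE 0.11). Of 10 kinases and partners held by arrestins, 4 were higher and 1 lower, led by Mapk10 (0.21, SE 0.12) and Map2k2 (-0.19, SE 0.11), each with a second probe set of opposite sign. Of 6 other G protein regulators 1 was higher, Gpsm1, by 0.07 (SE 0.07), while its other 2 probe sets overlapped, at -0.01 and -0.04.

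Of 21 chemokine receptors, 5 were higher and 5 lower without overlap, with a median of -0.02. Ccrl2, an atypical receptor that holds chemerin at the cell surface, read 6.48 and 6.82 in AhR-deficient cells, against 6.07 and 5.98 in wild-type cells, and the difference was 0.63 (SE 0.14; limma adjusted p = 0.647). Ackr3, a scavenging receptor that signals through beta-arrestins, was dim on all 4 arrays, at 3.58 and 3.61 in AhR-deficient cells, against 4.02 and 4.03 in wild-type cells, so its difference of -0.43 (SE 0.07; limma adjusted p = 0.533) is between signals near the bottom.

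**Figure D4:**
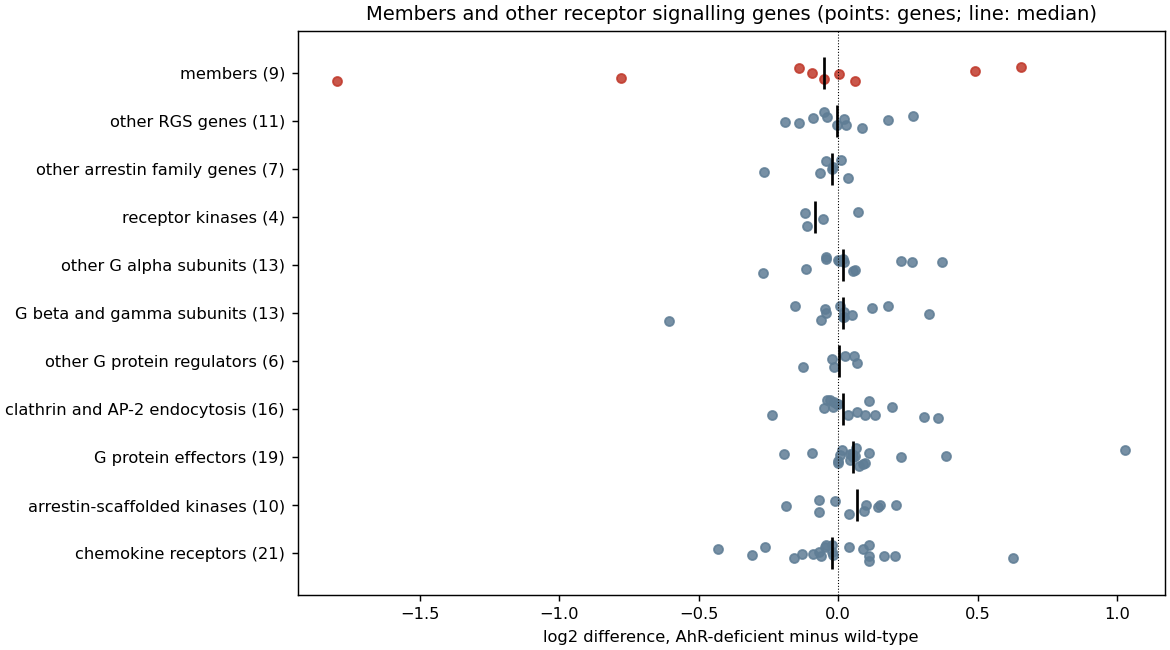
Log2 difference (AhR-deficient minus wild-type) of the 9 members (red) and of the genes in 10 lists of receptor signalling (blue), 1 probe set per gene, with the median of each list as a line and the number of genes in brackets. The medians lie between -0.08 and 0.07, and Arrb1 at -1.80 and Pik3cg at 1.03 lie farthest from 0.

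The genes whose values ran most like those of Arrb1 over the 4 arrays were found by the Euclidean distance between log2 values centred on each gene's mean. The nearest 5 were Dusp16 (distance 0.34), a MAP kinase phosphatase, Ctla2a (0.36), a cysteine protease inhibitor, Sh3bp5 (0.47), Tmem50b (0.49) and Cd3g (0.55), a chain of the T cell receptor complex. Their differences ranged from -2.18 to -1.26. The second probe set of Sh3bp5 had a smaller difference of -0.70 (SE 0.21). Arrb2 ranked 104 by this distance (1.24). With 4 arrays in 2 groups, any gene with a like difference and close replicates comes near, so this is a description of size.

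Markers of other cell types that a sort may carry over were read beside these results, each list as the log2 of its summed linear signal, which its brightest markers dominate, with counts of markers without overlap (18.8% higher and 16.6% lower over all genes). The T cell list gave 11.32 and 11.33 in AhR-deficient cells, against 11.20 and 11.61 in wild-type cells, with 4 of 15 markers lower, 1 higher and Cd5 dim on all arrays. Its brightest marker, Il7r, read 10.88 and 10.89 in AhR-deficient cells, against 10.64 and 11.24 in wild-type cells. The mean log2 signal over the list was 5.66 and 5.65 in AhR-deficient cells, against 5.85 and 5.81 in wild-type cells, without overlap. This second measure is given for the T cell list only, and 10 of the 15 markers overlapped between genotypes. Cd3g read 4.52 and 4.26 in AhR-deficient cells, against 5.80 and 5.50 in wild-type cells. The AhR-deficient values of Cd3g, Cd3d and Cd2, all lower without overlap, lay under the 25th percentiles of their arrays. The NK cell list gave 8.15 and 8.07 in AhR-deficient cells, against 9.07 and 8.45 in wild-type cells, with 3 of 6 markers lower and 1 higher, and Klrd1, a receptor chain of NK cells, at 6.29 and 5.82 in AhR-deficient cells, against 8.25 and 6.96 in wild-type cells. The part of these cells in the lower Arrb1 and Arrb2 signals was not tested.

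Keratinocyte markers summed to 10.14 and 9.84 in AhR-deficient cells, against 9.68 and 9.71 in wild-type cells, with 8 of 17 higher and 2 lower, and with Krt15, Krt17, Sfn and Ivl dim on all arrays. Langerhans cell markers summed to 14.74 and 14.59 in AhR-deficient cells, against 14.17 and 14.46 in wild-type cells, with 6 of 13 higher and 2 lower. Of the 6 higher ones, 4 were H2-Aa, H2-Ab1, H2-Eb1 and Cd74, which encode MHC class II chains and their invariant chain and differed by 0.93 to 1.37, and MHC class II was the marker of the sort. Cd207 (-0.07, SE 0.41) and Epcam (-0.32, SE 0.19) overlapped, and Csf1r differed by -1.05 (SE 0.26). Platelet and erythroid markers summed to 9.08 and 8.76 in AhR-deficient cells, against 8.61 and 8.61 in wild-type cells, with 2 of 7 higher and 1 lower. Beside the higher Rgs2 signal, the part of these lists was not tested.

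Mast cell markers summed to 8.41 and 8.39 in AhR-deficient cells, against 8.55 and 8.47 in wild-type cells, with 3 of 8 higher and 2 lower. Macrophage and neutrophil markers summed to 9.62 and 9.12 in AhR-deficient cells, against 9.22 and 9.26 in wild-type cells, with 3 of 11 higher, 2 lower and S100a8, S100a9, Fcgr1 and Cd163 dim on all arrays. B cell markers summed to 8.18 and 8.26 in AhR-deficient cells, against 8.28 and 8.20 in wild-type cells, with 3 of 7 higher, 0 lower and Cd79b dim. Melanocyte markers summed to 8.82 and 8.78 in AhR-deficient cells, against 8.73 and 8.88 in wild-type cells, with 1 of 6 lower and 0 higher. No marker of these 9 lists passed in limma.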

How the data were processed

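The deposited values are log2 expression per probe set, made by the authors with affy and RMA (background correction, quantile normalisation and summary over probes), per the submitters' processing notes. Versions and genome build are not given in the sources used here. Array medians lay between 5.60 and 5.63, and no scaling was added. Of 22690 probe sets, 64 controls were left out. In the platform annotation 20380 probe sets carried 1 symbol, 691 carried several and 1555 had none, and 20351 matched RefSeq by Entrez identifier with 0 changed symbols.

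The test was limma 3.58.1 under R 4.3.3 (two-sided lmFit and eBayes, with 2 residual and 2.27 prior degrees of freedom), with Benjamini-Hochberg adjustment over 22626 probe sets. SE is limma's moderated standard error (median 0.10). Precision is limited by the number of arrays, and p-values measure only the spread between these arrays. Calls of Arrb1, selected on this contrast, were not counted. Of a gene's probe sets, the brightest on average stood for the gene. Of the steps, only the limma fit was tested on simulated data. No arrays held identical values.

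Members and lists were chosen with earlier results of these data known. Named genes were the members, the 2 genes of each list with the smallest p among those without overlap, the 5 genes nearest to Arrb1, and markers that a value turns on. Alternatives were a replicate block, a trend or robust eBayes, leaving out dim or _s_at and _x_at probe sets, quantile normalisation again, median centring, 16 added on the linear scale, the mean of a gene's probe sets, and leaving out each array. Same-numbered arrays tended to deviate in opposite directions (r = -0.31 across probe sets), so the numbers were not taken as pairs.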

Additional observations from a re-analysis of the deposited data

How the results depend on the processing

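Among the 15 probe sets of genes other than Arrb1 there were 0 calls under each alternative for which their calls were counted. They were not counted for the mean of a gene's probe sets or without _s_at and _x_at probe sets. The setting without dim probe sets left out the dim ones of Rgs16 and Rgs18. Over all probe sets, a trend in eBayes gave 1 higher and 7 lower calls instead of 0 and 4. Lower calls over all probe sets numbered 0 with a replicate block, 0 with 16 added on the linear scale and 0 without any single array. With an array left out, the spread of each probe set comes from the other genotype alone, and the lone array is assumed to vary like it. Where nothing passes over all probe sets, 0 calls among the members show no stability. For 16 added the cause was not tested. A crossed pairing of AhR-deficient replicate 1 with wild-type replicate 2, chosen after seeing the data, also gave 0 calls. The replicate block changed no other call. Among the 120 genes of the lists there were 0 calls under each alternative.

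Genes among the 9 without overlap numbered 3 lower and 1 higher with all arrays, where 16.6% of all genes were lower and 18.8% higher. Without dim probe sets they numbered 2 lower and 1 higher, a setting for which the share over all genes was not counted. The lower counts include Arrb1, which was chosen because it was lower. Leaving out 1 array gave 4 to 5 lower and 1 to 3 higher, with 3 higher without AhR-deficient replicate 1 or wild-type replicate 1, and 5 lower and 2 higher without wild-type replicate 2, where 29.5% to 34.6% of all genes were lower and 32.4% to 38.9% higher without overlap. This count was added after seeing the data. The signs of Arrb1, Arrb2, Rgs1 and Rgs2 held under 13 alternatives, and that of Rgs18 under the 12 that kept this dim gene. Several of these alternatives could not turn a sign. The replicate block and the trend and robust eBayes leave a difference unchanged. For Arrb1, Arrb2, Rgs2 and Rgs18, whose arrays did not overlap, leaving out 1 array cannot turn the sign either. Arrb1 and Rgs1 have a single probe set, so the choice among probe sets changed nothing for them. Arrb1 ranged from -1.89 to -1.39, with -1.39 where 16 was added, Arrb2 from -1.15 to -0.41, Rgs1 from 0.10 to 1.21 and Rgs2 from 0.27 to 0.71. The sign turned under 2 alternatives each for Rgs10, Rgs19 and Gnai2, all of which left out an array, and under 5 for Rgs16.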
